A study of Mus musculus with 124 samples.

Results

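The genes described here encode the ligand and receptor pairs through which T cells and myeloid cells help B cells and T cells survive and respond: CD40 (Cd40) with CD40 ligand (Cd40lg), BAFF (Tnfsf13b) with its receptors BAFF-R (Tnfrsf13c) and TACI (Tnfrsf13b), CD27 (Cd27) with CD70 (Cd70), OX40 (Tnfrsf4), and ICOS (Icos) with ICOS ligand (Icosl). They are 10 of the 53465 genes of the count table, found by gene name, and 1 row of the table matched each name. RNA was measured by sequencing in 3 leukocyte types (T cells, B cells, monocytes), sorted by flow cytometry from blood of CD1 mice, an outbred stock, taken at postnatal days 35 to 40. EtOH denotes the model of prenatal alcohol exposure, in which ethanol was injected intraperitoneally as a 25% solution in PBS at 4.0 g/kg a day at embryonic days 16 and 17, and PBS is the treatment label of its controls. CBM is a treatment label that the sources used here do not spell out. The labels also describe offspring of dams made diabetic with streptozotocin, without tying them to CBM. PBS and EtOH samples came from batch 1 and CBM samples from batch 2, so that treatment and batch cannot be told apart between CBM and the other groups. T cells gave 6 samples under PBS, 9 under EtOH and 12 under CBM, and B cells and monocytes each gave 8, 8 and 13. The labels identify no animal, so a p-value here speaks only of the spread among samples, which may be technical in part.

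Most of these proteins belong to the tumour necrosis factor family of membrane-bound or shed trimeric ligands and their receptors, while ICOS and its ligand belong to the CD28 and B7 family. Activated CD4 T cells display CD40 ligand, and CD40 on B cells and myeloid cells passes the signal through TRAF adaptors to NF-kB. BAFF, made largely by myeloid cells, keeps mature B cells alive through BAFF-R, whereas TACI binds both BAFF and the related ligand APRIL and has a role in class switching and in limiting the B cell pool. CD27 and OX40 are costimulatory receptors of T cells, and ICOS on T cells meets ICOS ligand on B cells during the germinal centre response.

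The promoters of the BAFF ligand and receptor genes are shown because BAFF, BAFF-R and TACI RNA were each distributed differently over the 3 cell types, and that of Cd27 as a gene high in T cells. Each sequence is the 250 bases upstream of the RefSeq start on GRCm38.p6, read 5′ to 3′ on the strand of the gene, and capitals mark matches to the motifs searched. Tnfrsf13c lies on the minus strand of chromosome 15 and its window is chr15:82224381-82224630. Tnfrsf13b lies on the plus strand of chromosome 11 (chr11:61126505-61126754), Tnfsf13b on the plus strand of chromosome 8 (chr8:10006217-10006466) and Cd27 on the minus strand of chromosome 6 (chr6:125237028-125237277).
Tnfrsf13c: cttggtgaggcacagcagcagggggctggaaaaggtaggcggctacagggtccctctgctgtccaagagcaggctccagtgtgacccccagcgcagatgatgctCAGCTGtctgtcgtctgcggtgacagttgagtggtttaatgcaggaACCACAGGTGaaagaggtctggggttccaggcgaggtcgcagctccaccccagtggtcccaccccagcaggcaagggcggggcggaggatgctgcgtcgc
Tnfrsf13b: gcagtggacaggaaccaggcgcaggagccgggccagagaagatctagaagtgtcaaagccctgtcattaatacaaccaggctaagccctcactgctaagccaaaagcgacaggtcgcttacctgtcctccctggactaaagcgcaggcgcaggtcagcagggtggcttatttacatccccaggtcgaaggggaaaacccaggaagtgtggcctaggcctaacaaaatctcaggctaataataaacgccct
Tnfsf13b: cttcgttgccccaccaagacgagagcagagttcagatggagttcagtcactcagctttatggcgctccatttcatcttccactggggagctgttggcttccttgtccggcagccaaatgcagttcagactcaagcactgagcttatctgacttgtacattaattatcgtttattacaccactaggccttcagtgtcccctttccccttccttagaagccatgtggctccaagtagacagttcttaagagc
Cd27: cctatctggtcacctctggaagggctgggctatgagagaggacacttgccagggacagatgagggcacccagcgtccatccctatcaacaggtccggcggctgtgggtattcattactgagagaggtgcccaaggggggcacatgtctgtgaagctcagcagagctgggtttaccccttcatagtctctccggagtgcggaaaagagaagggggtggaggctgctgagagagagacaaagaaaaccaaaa
The motifs were the octamer ATGCAAAT, the PU.1 core GAGGAA, the E-boxes CAGGTG and CAGCTG, the Runx site TGTGGT and, by name, the NF-kB consensus, each on both strands. Among 32851 promoters of this length, they were present in 1.6%, 23.3%, 17.2%, 13%, 14% and 7.25%. The Tnfrsf13c promoter held CAGGTG, a Runx site on the opposite strand that overlaps it, and CAGCTG. The other 3 windows held none of these letters. RefSeq lists a second start of Tnfsf13b, whose window held no match either. Of the members with a promoter in the table, Icosl held a CAGGTG match and an NF-kB match, and Tnfrsf4 held none. Promoters of Cd40, Cd40lg, Cd70 and Icos are not shown.

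Samples held from 0.33 to 8.28 M counts (M, 1000000 counts), and values are counts per 1000000 of the sample total (CPM), with SD over samples. Of the 85 samples, 15 went against a label, 13 by the sex genes and 2 by cell type, and comparisons are also given without them (contradicted samples below). The 2 are JS17, labelled as PBS monocytes but carrying T cell marker RNA, and JS29, labelled as EtOH T cells but carrying monocyte marker RNA. The EtOH T cell sample JS23 held only 0.33 M counts. PBS T cell samples JS1 and JS20 carried B cell markers at 16.2% and 5.91% of the B cell mean, against a median of 0.661% over the PBS T cell samples. Of these, JS1 fits its labels and stays in the comparisons without contradicted samples. Every marker gene of the 3 sorted types had counts in at least 1 sample of every group. Such counts can be RNA of other cells or low expression by the sorted type itself, which were not told apart. In bulk samples, fewer cells of a type and less RNA per cell cannot be told apart.

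**Figure D1:**
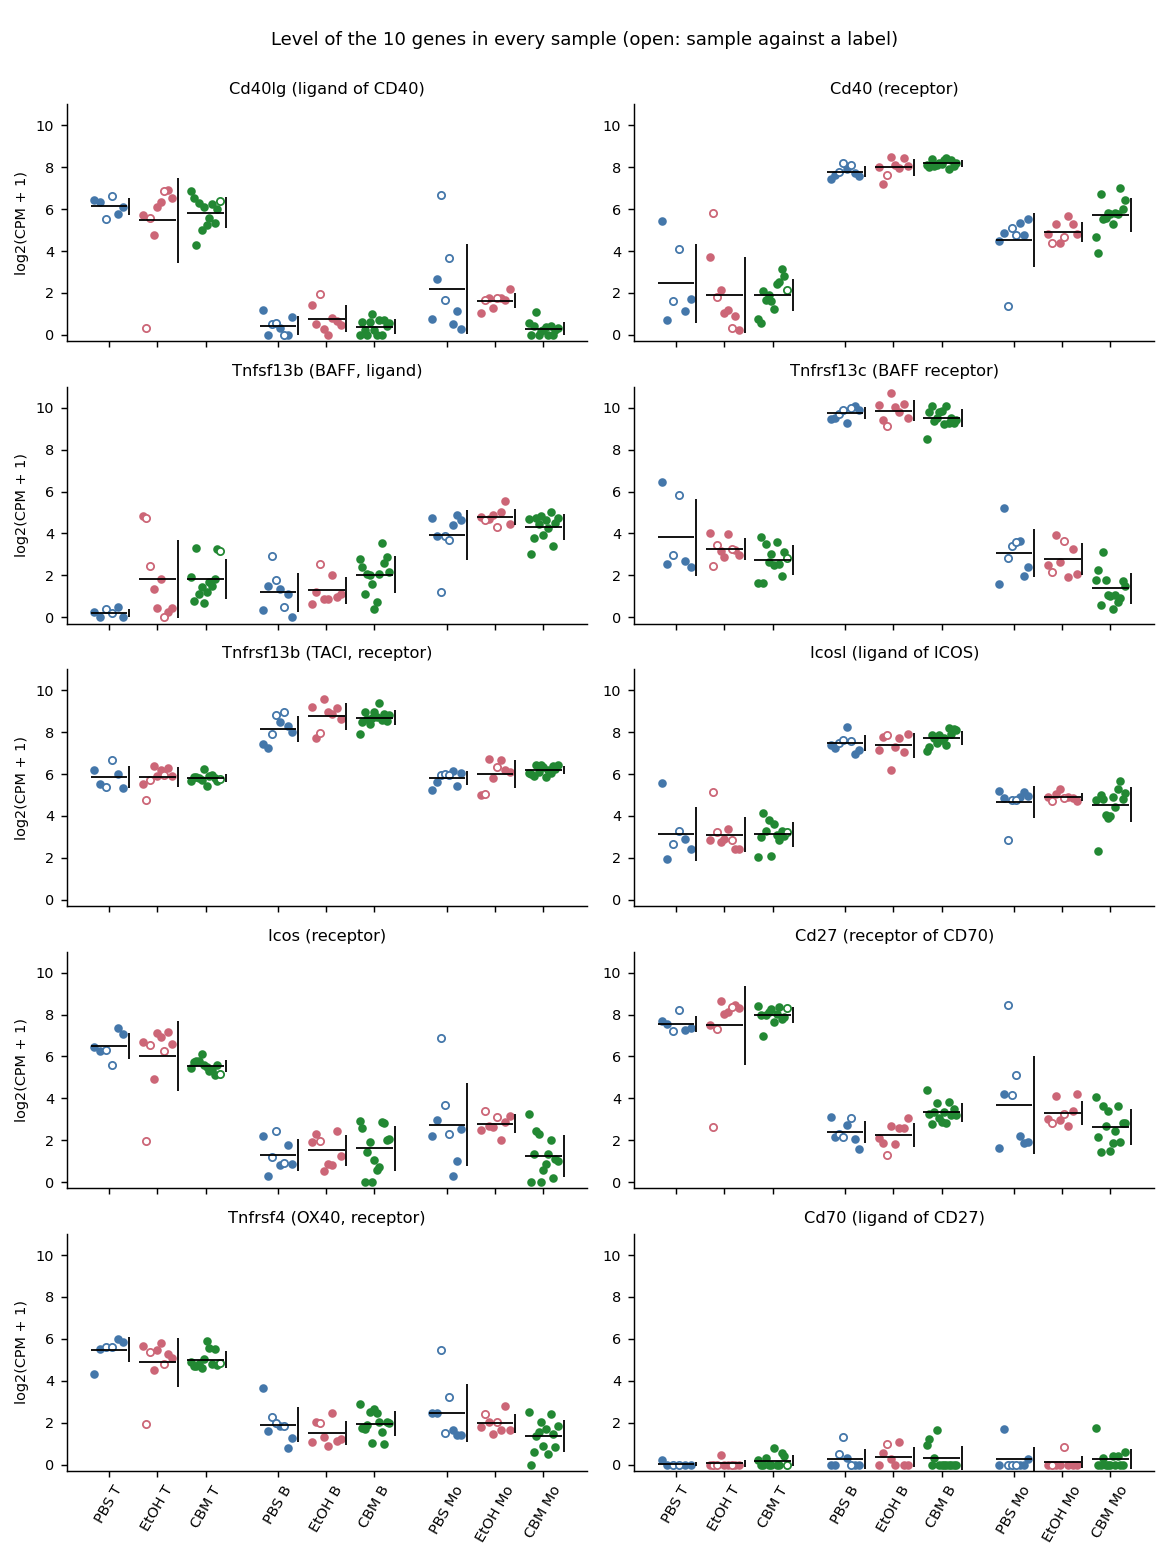
Level of each gene in every sample, as log2(CPM + 1), by sorted cell type and treatment (blue PBS, red EtOH, green CBM). Each point is a sample, open points are the 15 samples that go against a label, the horizontal line is the mean and the vertical bar ± SD. Cd40lg, Cd27, Tnfrsf4 and Icos lie high in T cells, Cd40, Tnfrsf13c and Icosl in B cells and Tnfsf13b in monocytes, while Tnfrsf13b is above 26 CPM in every sample.

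CD40 ligand RNA was found in T cells and CD40 RNA in B cells, with a lower level of Cd40 in monocytes. Cd40lg (chrX:57212143-57224042, plus strand, GRCm38) ranged in T cells from 44.6 to 97.8 CPM under PBS (median 73.9), from 0.259 to 120.8 CPM under EtOH (median 68.0) and from 18.3 to 115.1 CPM under CBM (median 65.6). The lowest EtOH value is that of JS29, and the other T cell samples lay above all B cell samples. In B cells Cd40lg did not exceed 2.92 CPM in any sample. In monocytes it averaged 0.256 CPM under CBM and 2.19 CPM under EtOH, and under PBS it was at most 11.8 CPM apart from JS17 at 101.9 CPM. T cells exceeded B cells by 7.57 ± 1.13 (log2 difference ± SE, edgeR adjusted p = 2.1e-05) under PBS, by 6.24 ± 0.65 under EtOH and by 7.15 ± 0.39 (adjusted p = 1.17e-18) under CBM. Against monocytes the difference under PBS was 2.60 ± 0.85 (adjusted p = 0.0153) with all samples and 5.60 ± 0.53 without the contradicted ones. Cd40lg entered these tests through T cells, as its median in PBS B cells was 1 count. The p-values between cell types, here and for the genes below, are therefore a description.

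Cd40 (chr2:165055627-165072948, plus strand) was highest in B cells under each treatment, at 224.2 ± 42.9 CPM under PBS (n = 8), 263.8 ± 70.1 under EtOH (n = 8) and 292.1 ± 32.6 under CBM (n = 13). The lowest B cell sample, at 148.2 CPM, lay above the highest monocyte sample at 128.5 CPM. Monocytes held 27.6 ± 13.0 CPM under PBS, 30.4 ± 10.6 under EtOH and 59.2 ± 31.2 under CBM. The mean in B cells was 8.14 times that in monocytes under PBS, 8.67 times under EtOH and 4.94 times under CBM. T cells held a median of 2.20 CPM under PBS, 1.29 under EtOH and 2.97 under CBM. T cell samples with more were JS1 at 41.8 CPM and JS20 at 16.1 CPM, which carry B cell markers, JS29 at 55.7 CPM and the shallow JS23 at 12.2 CPM. The log2 difference between B cells and monocytes was 2.66 ± 0.63 (adjusted p = 0.00122) under PBS, 2.66 ± 0.73 under EtOH and 1.99 ± 0.25 (adjusted p = 5.04e-09) under CBM.

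BAFF RNA was highest in the samples labelled monocytes, whereas the receptor RNAs were highest in B cells. The monocyte samples also held neutrophil markers, at a median sum of 12580, 15460 and 13090 CPM under PBS, EtOH and CBM. That sum was 81.6, 144.2 and 153.4 CPM in T cells and 207.1, 361.8 and 374.1 CPM in B cells. The part of neutrophil RNA in the Tnfsf13b level was not tested. Tnfsf13b (chr8:10006467-10039072, plus strand) ranged in monocytes from 1.27 to 28.8 CPM under PBS (median 17.1), from 18.6 to 46.3 under EtOH (median 25.7) and from 7.24 to 32.1 under CBM (median 21.7). The lowest PBS value is that of JS17. In B cells the medians were 1.36, 1.06 and 3.24 CPM under PBS, EtOH and CBM. In T cells they were 0.173, 1.54 and 2.00 CPM, and 2 EtOH T cell samples stood at the monocyte level, the monocyte-like JS29 at 25.9 CPM and JS23 at 27.4 CPM, where 9 reads make up the value. Monocytes exceeded B cells by 3.80 ± 0.66 (log2, adjusted p = 5.45e-05) under PBS, 4.45 ± 0.89 under EtOH and 2.82 ± 0.39 (adjusted p = 5.63e-08) under CBM. They exceeded T cells by 6.93 ± 0.91 (adjusted p = 4.64e-06) under PBS, 2.65 ± 0.78 (adjusted p = 0.00716) under EtOH and 3.06 ± 0.40 (adjusted p = 1.99e-08) under CBM. Without contradicted samples the EtOH difference from T cells was 4.65.

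BAFF-R RNA was far higher in B cells than in T cells or monocytes. Tnfrsf13c (chr15:82221743-82224369, minus strand) averaged 864.1 ± 166.5 CPM in B cells under PBS, 986.5 ± 354.1 under EtOH and 760.5 ± 207.1 under CBM, the highest per kilobase of exon among the 10 genes in any cell type (421.9, 481.7 and 371.3 CPM per kb). Its lowest B cell sample, at 363.7 CPM, lay above every T cell and monocyte sample, of which the highest was JS1 at 86.7 CPM. Medians were 6.16, 8.13 and 5.70 CPM in T cells and 7.74, 4.88 and 1.10 CPM in monocytes under PBS, EtOH and CBM. B cells exceeded monocytes by 6.29 ± 0.72 (log2, adjusted p = 3.9e-07), 6.78 ± 0.37 and 8.35 ± 0.37 (adjusted p = 2.65e-21) under the 3 treatments. They exceeded T cells by 5.12 ± 0.76 (adjusted p = 2.14e-05), 6.81 ± 0.36 and 7.01 ± 0.35 (adjusted p = 1.2e-19).

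TACI RNA, in contrast, stood at 26.4 CPM or more in every sample of all 3 cell types. Tnfrsf13b (chr11:61126755-61149372, plus strand) averaged 304.5 ± 125.1 CPM in B cells under PBS, 465.7 ± 183.4 under EtOH and 422.1 ± 102.9 under CBM. In T cells it averaged 60.02 ± 23.5, 59.4 ± 16.9 and 55.2 ± 8.05 CPM, and in monocytes 55.7 ± 11.8, 67.7 ± 27.8 and 72.7 ± 10.3 CPM. B cells did not overlap either type and exceeded monocytes by 2.11 ± 0.22 (log2, adjusted p = 1.16e-07), 2.35 ± 0.26 and 2.22 ± 0.13 (adjusted p = 6.23e-18). Between T cells and monocytes the difference was -0.29 ± 0.23 (adjusted p = 0.315) under PBS, -0.63 ± 0.24 (adjusted p = 0.0319) under EtOH and -0.84 ± 0.13 (adjusted p = 4.85e-07) under CBM. In the fit monocytes were thus higher under EtOH and CBM, and the order of these neighbours could not be told under PBS. The fit uses TMM factors and a sex term, which the CPM do not. In CPM the T cell mean was the higher under PBS. Under EtOH samples ranged from 26.4 to 81.3 CPM in T cells and from 30.6 to 103.2 CPM in monocytes. An annotated gene, Gm12269, overlaps Tnfrsf13b on the opposite strand, and the strand used in counting is not given in the sources used here, so reads of the pair cannot be separated.

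By group medians, the level of Tnfrsf13b outside B cells was many times the share of B cell marker RNA in the same samples. In CBM T cells it stood at a median of 12.9% of the B cell mean (9.84% to 17.8%, n = 12), where the summed B cell markers stood at 0.399% (0.224% to 0.542%) and Tnfrsf13c at 0.75%. In CBM monocytes the same measure was 17.3% for Tnfrsf13b (13.7% to 20.4%, n = 13), against 0.27% for the B cell markers and 0.145% for Tnfrsf13c. Under PBS it was 17.7% in T cells and 19.9% in monocytes, with B cell markers at 0.661% and 0.955%. Under EtOH it was 12.9% and 14.9%, with markers at 0.438% and 0.537%. Such a level in monocytes was not particular to Tnfrsf13b. In CBM monocytes Cd40 stood at a median of 18.3% and Icosl at 12.4% of the B cell mean. In CBM T cells these were 1.02% and 3.67%. Reads of Gm12269 cannot be separated from Tnfrsf13b in these values either. The ratio of Tnfrsf13b to Tnfrsf13c counts within a sample separated B cells, at 0.207 to 0.689, from the T cell and monocyte samples, at 0.833 or more. Its median was 0.285, 0.482 and 0.591 in B cells of PBS, EtOH and CBM, 7.55, 7.21 and 9.39 in T cells, and 8.38, 8.79 and 66.3 in monocytes. Samples JS1 and JS20, which carry B cell markers, had the highest Tnfrsf13c of the PBS T cell samples, at 10.0% and 6.53% of the B cell mean.

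**Figure D2:**
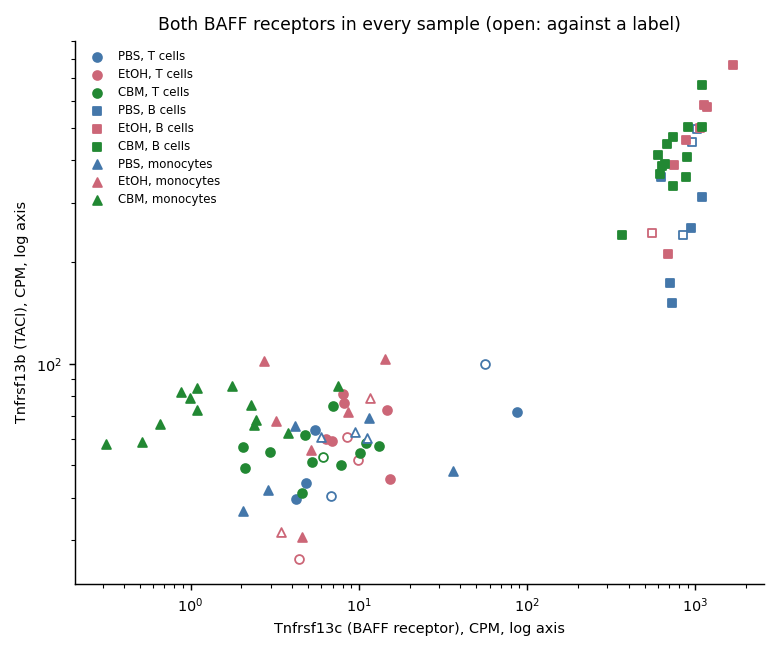
BAFF-R (Tnfrsf13c, x axis) against TACI (Tnfrsf13b, y axis) in CPM, both axes logarithmic, for every sample (circles T cells, squares B cells, triangles monocytes, coloured by treatment, open where a sample goes against a label). B cells form a group at upper right, with Tnfrsf13c above 363 CPM, while T cells and monocytes spread along low Tnfrsf13c at Tnfrsf13b values between 26 and 104 CPM.

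CD27 RNA was a T cell transcript in these samples and its ligand was close to undetected. Cd27 (chr6:125232622-125237010, minus strand) ranged in T cells from 148.8 to 294.0 CPM under PBS (median 174.3), from 5.18 to 395.8 under EtOH (median 278.0) and from 125.7 to 339.2 under CBM (median 256.1). The lowest EtOH value is JS29, and the other T cell samples lay above all B cell samples. In B cells Cd27 averaged 4.53 ± 2.03, 4.09 ± 1.94 and 9.55 ± 3.82 CPM. In monocytes the medians were 10.1, 7.79 and 5.42 CPM, with JS17 at 353.1 CPM. T cells exceeded B cells by 5.50 ± 0.89 (log2, adjusted p = 5.38e-05), 5.71 ± 0.51 and 4.70 ± 0.24 (adjusted p = 2.52e-19) under PBS, EtOH and CBM. Cd27 overlaps Vamp1 on the opposite strand, and reads of the shared exons cannot be assigned without strand.

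Cd70 (chr17:57145997-57149777, minus strand) had 57 counts in all, in 26 of 85 samples and at most 8 in 1 sample, out of 363.8 M counts. Summed over a group, it stood between 0.032 CPM in EtOH monocytes (1 count, exact Poisson 95% interval 0.000809 to 0.178) and 0.285 CPM in CBM B cells (16 counts, 0.163 to 0.464). These intervals cover counting error only. Cd70 passed the filter on low counts in no comparison, and an order of cell types was not detectable at this depth.

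OX40 RNA followed the T cells as well. Tnfrsf4 (chr4:156013843-156016612, plus strand) averaged 46.4 ± 14.95 CPM in T cells under PBS, 34.4 ± 15.7 under EtOH and 32.6 ± 10.96 under CBM, against 3.47, 2.06 and 3.17 CPM in B cells. Monocytes averaged 8.60, 3.11 and 1.91 CPM, the first including JS17 at 44.0 CPM. T cells exceeded B cells by 3.96 ± 0.64 (log2, adjusted p = 5.51e-05) under PBS and by 3.23 ± 0.33 under CBM. Between B cells and monocytes the difference did not pass under PBS (-1.37, adjusted p = 0.0575) or EtOH (-1.01, adjusted p = 0.0586). Without contradicted samples it was -0.06 (adjusted p = 0.945) under PBS, and under EtOH it passed (-1.05 ± 0.41, adjusted p = 0.0358). Its ligand OX40L (Tnfsf4), looked at after the members' values were known, averaged between 0.269 and 2.38 CPM over the 9 groups.

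ICOS and its ligand divided between T cells and B cells. Icos (chr1:60977927-61000320, plus strand) ranged in T cells from 47.1 to 163.5 CPM under PBS (median 81.7), from 2.85 to 140.3 under EtOH (median 94.7) and from 33.8 to 68.5 under CBM (median 45.1), with JS29 again lowest. In B cells it averaged 1.80, 2.19 and 2.82 CPM. T cells exceeded B cells by 5.81 ± 0.92 (log2, adjusted p = 4.14e-05) under PBS, 5.18 under EtOH and 4.13 ± 0.49 under CBM. Icosl (chr10:78069302-78083913, plus strand) averaged 181.7 ± 55.3 CPM in B cells under PBS, 174.8 ± 58.9 under EtOH and 215.9 ± 49.6 under CBM. Monocytes held 26.8 ± 9.12, 29.2 ± 4.06 and 25.3 ± 11.8 CPM, below every B cell sample, of which the lowest was at 71.97 CPM. T cells held medians of 5.91, 6.21 and 7.91 CPM, with JS1 at 46.5 CPM and JS29 at 34.0 CPM above the rest. B cells exceeded monocytes by 2.35 ± 0.46 (log2, adjusted p = 1.89e-04), 2.20 ± 0.41 and 2.79 ± 0.23 (adjusted p = 2.6e-13).

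**Figure D3:**
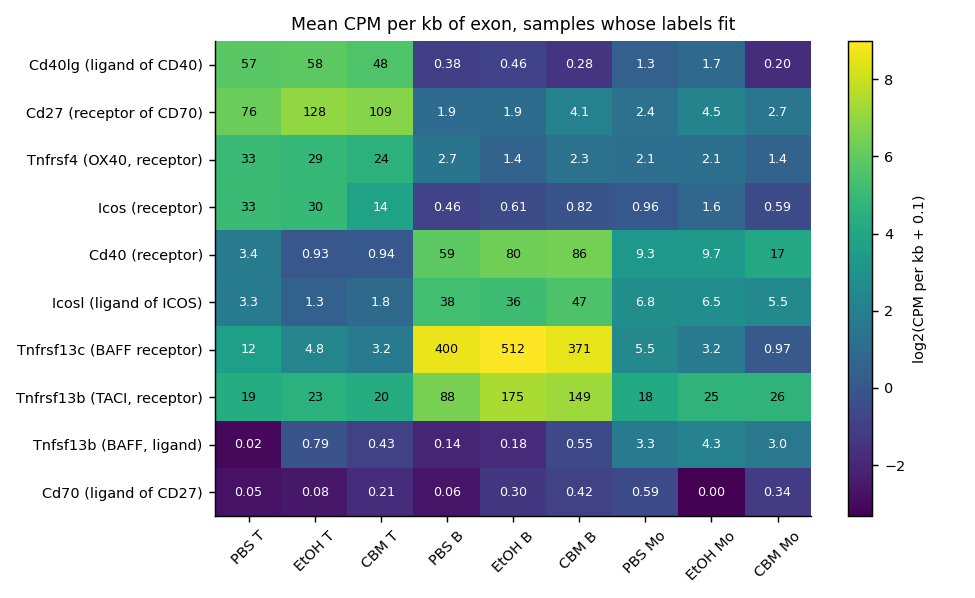
Heat map of the mean level of each gene in CPM per kilobase of exon, by cell type and treatment, over the samples whose labels fit. Ligand and receptor of a pair take their highest value in different columns, leaving aside Cd70, whose values rest on few reads. OX40 is shown without its ligand. Tnfrsf13c in B cells is the highest value of the map.

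Per kilobase of exon, which allows genes to be set side by side, and over all samples, B cells carried under PBS 421.9 CPM per kb of Tnfrsf13c, 107.4 of Tnfrsf13b, 65.8 of Cd40 and 39.3 of Icosl. T cells carried 82.5 of Cd27, 57.3 of Cd40lg, 34.0 of Tnfrsf4, 28.3 of Icos and 21.2 of Tnfrsf13b. Monocytes carried 19.7 of Tnfrsf13b, 8.09 of Cd40, 5.81 of Icosl, 5.09 of Tnfrsf13c and 2.54 of Tnfsf13b, leaving aside the T cell genes that JS17 raised. The BAFF ligand was low even in the type where it was highest, far below the level of either receptor in B cells.

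Members entered these tests through the cell type in which they were high, so the p-values above and the counts that follow are a description. T cells and B cells differed in 9 of 9 tested members under PBS, 8 of 9 under EtOH and 8 of 9 under CBM, where 33.7%, 30% and 31.8% of all genes tested passed. T cells and monocytes differed in 7, 8 and 9 of 9, where 47.3%, 47.6% and 49.5% of all genes passed. B cells and monocytes differed in 8, 8 and 5 of 9, where 52.2%, 53.7% and 52.3% of all genes passed. The members that did not pass between B cells and monocytes under CBM were Cd40lg, Cd27, Tnfrsf4 and Icos, the T cell genes. Under PBS, leaving out contradicted samples brought that count from 8 to 5 (58.8% of all genes passed), as Cd40lg, Cd27 and Icos went from -4.97, -3.32 and -3.30 to -1.60, -0.45 and -1.27 without JS17 and the rest of them. Under EtOH the same step brought it from 8 to 9, adding Tnfrsf4 (55% of all genes passed). Tnfsf13b did not pass between T and B cells under EtOH (1.80 ± 0.90, adjusted p = 0.14) or CBM (-0.24 ± 0.40, adjusted p = 0.666).

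Genes of the wider pathway were counted in the same cell type comparisons. Of all genes tested between T and B cells, 33.7%, 30% and 31.8% passed under PBS, EtOH and CBM, in either direction. Of the TNF family partners tested, 9 of 17 were higher and 0 lower in T cells than in B cells under PBS, 11 of 16 higher and 1 lower under EtOH and 11 of 18 higher and 1 lower under CBM (median log2 difference 1.44 under PBS, against -0.01 for all genes). Of the TRAF and NF-kB genes tested, 2 were higher and 7 lower in T than in B cells under PBS, out of 19. Among these Nfkb2, the precursor of the p52 subunit on which CD40 and BAFF-R signalling converges, had a log2 difference of T from B cells of -2.53 ± 0.25 under PBS and -2.47 ± 0.25 under CBM. Traf5, an adaptor of CD40, CD27 and OX40, was higher in B cells than in monocytes by 1.88 under PBS and 2.37 under CBM. Of the CD28 and B7 family, 3 of 8 were higher and 4 lower in T cells than in B cells under PBS. Cd28, the receptor, was higher in T cells by 6.56 and 6.02 under PBS and CBM. Of the survival and follicular B cell genes, 1 of 10 was higher and 4 lower in T cells. Cr2, Fcer2a and Cd22 of this list are also among the B cell markers used here, so lower values in T cells are partly built in.

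For each member, the 3 genes whose level was most like its own over the 85 samples were found by Pearson's r of log2(CPM + 1) among 10239 genes. The points share cell type, batch and depth, so r is a description. Cd40 was most like Myo1c (0.959), H2-DMa and Cd74, and Icosl like H2-DMb2 (0.951), Fcrl1 and Ero1lb. H2-DMa, H2-DMb2 and Cd74 serve antigen loading on MHC class II. Tnfrsf13c was most like Fcrla (0.985), Srpk3 and Blnk, and Tnfrsf13b like Cd79b (0.94), Pafah1b3 and Vpreb3. Cd40lg was most like Tdrp (0.969), Cd4 and Trat1, Cd27 like Dapl1 (0.968), Cd3e and Themis, Icos like Trat1 (0.958), Cd28 and Bcl11b, and Tnfrsf4 like Izumo1r (0.939), Cd3e and Kcnn4. Tnfsf13b was most like Trpm2 (0.936), Fgd4 and Sgms2. For the nearly absent Cd70, r reached only 0.539 (Csmd3, then Myh10 and Pard3).

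In the comparison of EtOH with PBS, which asks whether prenatal ethanol left a trace in these genes, 0 of the 7 members tested in T cells, 0 of 5 in B cells and 0 of 8 in monocytes passed edgeR's test. Over all genes 0% passed in each type, while 1183, 904 and 411 genes had an unadjusted p under 0.05. With DESeq2, 0 members and 37, 1 and 0 genes passed in T cells, B cells and monocytes. In T cells Cd27 differed by 0.34 ± 0.47, Cd40lg by -0.12 ± 0.54, Icos by -0.20 ± 0.49, Tnfrsf4 by -0.51 ± 0.38 and Tnfrsf13b by -0.04 ± 0.19 (log2 ± SE). Tnfrsf13c had an unadjusted p of 0.0296 in T cells (-1.57 ± 0.65, adjusted p = 0.532), where the summed B cell markers ranged from 64.5 to 3120 CPM in PBS and from 46.7 to 292.7 CPM in EtOH samples. The part of B cell RNA in that difference was not tested. Icosl differed by -0.07 ± 0.85. Tnfsf13b, Cd40 and Cd70 were too low in T cells to be tested.

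In B cells Tnfrsf13b was at 151.3, 173.5, 240.0, 251.8, 311.7, 357.9, 453.0 and 496.8 CPM in the PBS samples and at 211.0, 244.6, 388.9, 459.8, 499.3, 575.1, 582.2 and 764.3 CPM in the EtOH samples. The groups overlap, and 6 of 8 EtOH samples lay above the PBS mean. The difference was 0.41 ± 0.22 (log2, adjusted p = 0.664), and 0.75 ± 0.28 (adjusted p = 0.126) without contradicted samples. Cd40 (0.14 ± 0.15), Tnfrsf13c (-0.01 ± 0.15) and Icosl (0.01 ± 0.20) lay within 1 SE of 0 in B cells, as did Cd27 (0.00 ± 0.38). Cd40lg, Tnfsf13b, Cd70, Tnfrsf4 and Icos were too low there to be tested. In monocytes the mean of Tnfsf13b was 17.4 ± 9.04 CPM under PBS and 27.7 ± 8.64 under EtOH, and 8 of 8 EtOH samples lay above the PBS mean. The difference of 0.58 ± 0.43 did not pass (adjusted p = 1), and it was 0.06 ± 0.29 without contradicted samples, among them the T-cell-like JS17. Tnfrsf13b (0.30 ± 0.24), Cd40 (0.09 ± 0.41), Tnfrsf13c (-0.38 ± 0.57) and Icosl (0.09 ± 0.29) did not pass in monocytes, nor did Cd27 (-1.44 ± 0.91), Tnfrsf4 (-0.76 ± 0.64) and Icos (-0.71 ± 0.77). The last 3 were 1.47, 0.22 and 0.85 without contradicted samples. Cd40lg and Cd70 were too low in monocytes to be tested.

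Without the 14 contradicted samples of PBS and EtOH, 0 of 8, 0 of 5 and 0 of 9 members passed in T cells, B cells and monocytes, where 1.37%, 4.62% and 0.104% of all genes passed. The counts behind these shares moved with single samples: 182 genes passed in T cells but 28 without JS4 and 358 without JS1, 577 in B cells but 0 without JS5 and 1458 without JS30, and 13 in monocytes but 0 without JS6 and 121 without JS31. Cd27 in T cells came nearest, with PBS at 177.2 ± 25.6 CPM (n = 4) and EtOH at 296.7 ± 74.8 CPM (n = 6). The 6 EtOH samples lay at 179.9, 263.1, 278.0, 315.2, 348.5 and 395.8 CPM and the PBS samples at 152.0, 161.5, 187.1 and 208.4 CPM. The lowest EtOH sample, the shallow JS23, fell inside the range of these PBS samples and the other 5 lay above it. The PBS samples left out, by the sex genes, held the lowest and the highest Cd27 of all PBS T cell samples. With them the PBS range reached above the EtOH samples at 263.1 and 278.0 CPM, and the difference over all samples was 0.34. Without contradicted samples the difference was 0.69 ± 0.19 (adjusted p = 0.097) in edgeR, and 0.78 without JS23, where it passed. DESeq2 called it at 0.71 (adjusted p = 0.0034), a rule by which 7.09% of all genes passed.

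None of the pathway genes passed in EtOH against PBS over all samples, and the members' median difference was -0.12 in T cells, 0.01 in B cells and -0.15 in monocytes, beside 0.06, 0.01 and 0 for all genes tested. Without contradicted samples the members' medians were -0.32, 0.36 and 0.22. In T cells the lowest p-values of each list were those of Tnfrsf18 (GITR, -0.53 ± 0.26) and Tnfsf14 (LIGHT, 1.29 ± 0.71), Cd28 (-0.61 ± 0.44) and Btla (-0.41 ± 0.37), Traf6 (-0.44 ± 0.17) and the NF-kB inhibitor Tnfaip3 (-0.67 ± 0.29), and Fcer2a (-3.34 ± 1.02) and Cd22 (-2.86 ± 0.96), both B cell genes. In B cells they were Tnfrsf1b (-0.30) and Lta (0.39), Cd86 (-0.44) and Cd274 (-0.44), Relb (-0.39 ± 0.11, adjusted p = 0.63) and Ikbkg (0.32 ± 0.11), and Mcl1 (0.20) and Ccr7 (-0.16). In monocytes they were Tnfsf9 (0.96) and Tnfrsf8 (0.60), Cd28 (-0.89) and Cd274 (-0.24), Nfkb1 (0.57) and Ikbkg (0.24), and Ccr7 (-1.71) and Bcl2 (-0.53). Without contradicted samples, 1 of 19 TRAF and NF-kB genes passed in T cells, Nfkbia (the NF-kB inhibitor IkBa), which fell by 1.03 ± 0.22 (adjusted p = 0.0373). In B cells 2 of 19 passed, Traf6, which fell by 0.77 ± 0.15 (adjusted p = 0.0186), and Tnfaip3 (A20), which fell by 1.09 ± 0.22 (adjusted p = 0.0215). Both B cell calls are lost without JS5, where 0 genes passed. Over all genes 1.37% passed in T cells and 4.62% in B cells without contradicted samples.

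**Figure D4:**
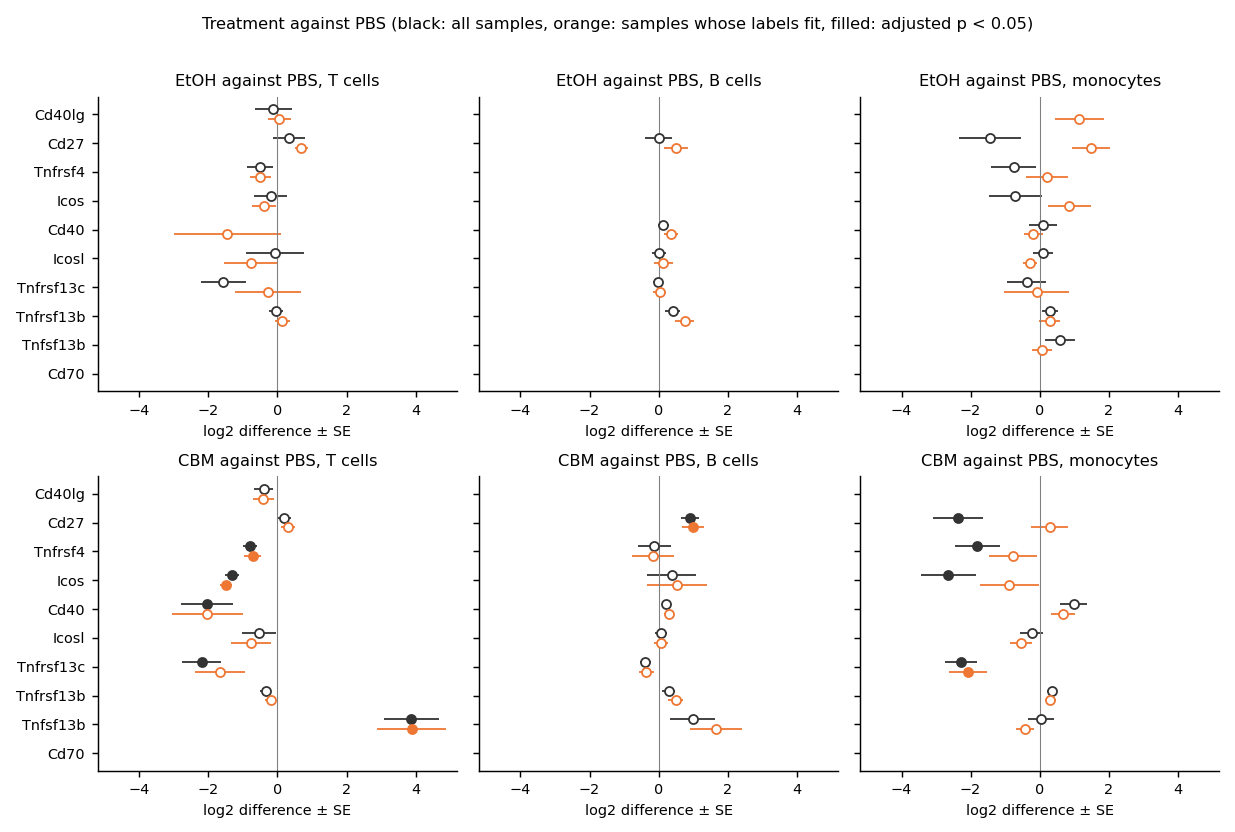
Log2 difference ± SE of each member from PBS, for EtOH and CBM in each cell type (black over all samples, orange without contradicted samples; filled points have an adjusted p under 0.05). No EtOH point is filled, and CBM points are filled for Tnfsf13b, Tnfrsf4 and Icos in T cells, Cd27 in B cells and Tnfrsf13c in monocytes in both fits. Tnfsf13b in T cells passed the filter on low counts only through the CBM samples, and Tnfrsf13c in monocytes mainly through the PBS samples.

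CBM and PBS samples differed in many genes, and treatment cannot be told apart from batch there. In T cells 5 of 9 members tested passed (1 higher, 4 lower), where 45.2% of all genes passed. The 1 higher, Tnfsf13b, entered the test only through the CBM samples. Without contradicted samples 3 of the members passed, where 41.9% of all genes did. Icos fell by 1.31 ± 0.21 (log2, adjusted p = 8.04e-05), and 12 of 12 CBM samples lay below the PBS mean of 96.96 ± 42.6 CPM, at 46.1 ± 9.82 CPM, with overlapping ranges. Without contradicted samples Icos fell by 1.49 ± 0.18 (adjusted p = 1.13e-05) and the groups did not overlap. Tnfrsf4 fell by 0.79 ± 0.21 (adjusted p = 0.00554), with 11 of 12 CBM samples below the PBS mean and overlapping groups. Beside them Cd4 averaged 441.7 ± 123.9 CPM in PBS and 529.8 CPM in CBM T cells, and Foxp3, a marker of regulatory T cells, 62.9 ± 10.5 and 97.5 ± 31.6 CPM. The part of T cell subsets in these differences was not tested. Of the CD28 and B7 family 2 of 7 passed, Cd28, which fell by 1.22 ± 0.24, and Ctla4, a CD28 relative that restrains T cells, which fell by 1.66 ± 0.28 (adjusted p = 1.14e-04). Cd40lg (-0.40 ± 0.28, adjusted p = 0.259) and Cd27 (0.20 ± 0.18, adjusted p = 0.381) did not pass.

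Tnfsf13b was higher in CBM than in PBS T cells. PBS samples lay at 0, 0, 0.166, 0.179, 0.297 and 0.392 CPM, and CBM samples at 0.628, 0.717, 1.19, 1.33, 1.69, 1.78, 2.23, 2.51, 2.80, 8.001, 8.72 and 8.92 CPM. The groups did not overlap, and 3 CBM samples stood apart at or above 8.001 CPM. The fitted difference was 3.88 ± 0.80 (log2, adjusted p = 7.72e-04), and 3.89 ± 1.00 (adjusted p = 0.00651) without contradicted samples. The gene passed the filter on low counts only through the CBM samples, which held 3 to 39 reads each, so that a difference was a condition of its being tested. Monocyte markers moved with it: their sum ranged from 723.1 to 1132 CPM in PBS and from 728.5 to 3774 CPM in CBM T cells, and 5 of 12 of them passed as higher. In CBM T cells Tnfsf13b stood at a median of 9.81% of the monocyte mean, with monocyte markers at 4.17% and Lyz2, one of them, at 1.96%. In PBS T cells these were 0.767%, 2.86% and 0.819%. The 3 highest samples held 39.3%, 42.8% and 43.8% of the monocyte level of Tnfsf13b, with monocyte markers at 3.0%, 7.52% and 9.59%, while another held 6.52% with markers at 8.96%. The part of monocyte RNA in the difference was not tested.

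Cd40 fell by 2.03 ± 0.75 (adjusted p = 0.0331) and Tnfrsf13c by 2.19 ± 0.57 (adjusted p = 0.0046) in CBM T cells. B cell markers moved with them: their sum ranged from 64.5 to 3120 CPM in PBS and from 42.2 to 102.0 CPM in CBM T cells, and 13 of 13 tested were lower. Without JS1 Cd40 differed by -0.59, and without contradicted samples neither Cd40 (-2.03, adjusted p = 0.121) nor Tnfrsf13c (-1.66, adjusted p = 0.0736) passed. JS1 is not a contradicted sample, so the fit without contradicted samples still held PBS T cells with B cell markers of up to 3120 CPM. The part of B cell RNA in the T cell values was not tested. Tnfrsf13b (-0.34 ± 0.16, adjusted p = 0.103) and Icosl (-0.54 ± 0.49, adjusted p = 0.383) did not pass.

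In B cells 1 of 8 members passed, where 36.2% of all genes passed, and 1 without contradicted samples, where 42.9% did. Cd27 was at 1.94, 3.10, 3.47, 3.49, 3.89, 5.57, 7.24 and 7.51 CPM in the PBS samples, while CBM samples ranged from 5.73 to 19.7 CPM with a median of 8.66. The groups overlap, and 13 of 13 CBM samples lay above the PBS mean. Cd27 rose by 0.91 ± 0.27 (log2, adjusted p = 0.0119), and by 1.00 ± 0.32 (adjusted p = 0.0176) without contradicted samples. Beside it the summed T cell markers stood at a median of 1.90% of the T cell mean in PBS and 2.01% in CBM B cells, and Cd3e among them at 0.956% and 0.666%, while Cd27 stood at 2.08% and 3.43%. Of the other T cell members, Icos stood at 0.938% and 5.76% and Tnfrsf4 at 5.58% and 8.91%. Of 15 T cell markers tested 4 passed, all lower in CBM, and the part of T cell RNA in the Cd27 difference was not tested. Cd40 differed by 0.20 ± 0.11 (adjusted p = 0.162), with 13 of 13 CBM samples above the PBS mean. Tnfrsf13b (0.29 ± 0.18, adjusted p = 0.209), Tnfrsf13c (-0.38 ± 0.17, adjusted p = 0.0786), Tnfsf13b (0.99 ± 0.65, adjusted p = 0.232), Icosl (0.07 ± 0.16), Tnfrsf4 (-0.12 ± 0.47) and Icos (0.38 ± 0.71) did not pass. Cd40lg and Cd70 were too low to be tested.

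In monocytes 4 of 8 members passed, all lower, where 25.5% of all genes passed. Without contradicted samples 1 did, where 19.9% of all genes passed. That 1 was Tnfrsf13c, which fell by 2.28 ± 0.47 (log2, adjusted p = 9.69e-04) and by 2.09 ± 0.55 (adjusted p = 0.00988) in the second fit. It averaged 10.4 ± 11.03 CPM in PBS and 1.99 ± 1.94 CPM in CBM monocytes, and 13 of 13 CBM samples lay below the PBS mean with overlapping ranges. Tnfrsf13c passed the filter on low counts mainly through the PBS samples, at a median of 33.5 counts there and 7 in CBM samples. B cell markers moved with it, from a median sum of 183.8 CPM (70.2 to 671.3) in PBS to 50.8 CPM (23.6 to 209.1) in CBM monocytes, and 9 of 14 were lower, or 6 of 15 in the second fit. Their part in the Tnfrsf13c difference was not tested. Cd27 fell by 2.36 ± 0.73 (adjusted p = 0.0209), Tnfrsf4 by 1.81 ± 0.65 (adjusted p = 0.0429) and Icos by 2.65 ± 0.79 (adjusted p = 0.0164). All 16 T cell markers fell too, and these 3 differences were 0.29 (adjusted p = 0.734), -0.77 (adjusted p = 0.464) and -0.88 (adjusted p = 0.502) without contradicted samples, JS17 among them. Tnfsf13b did not pass (0.04 ± 0.37, adjusted p = 0.952), at 17.4 ± 9.04 and 20.4 ± 7.49 CPM. Icosl (-0.23 ± 0.33), Cd40 (0.98 ± 0.40, adjusted p = 0.0745) and Tnfrsf13b (0.34 ± 0.13, adjusted p = 0.0583, 13 of 13 CBM samples above the PBS mean) did not pass either.

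The members' median difference in CBM against PBS was -0.54 in T cells, 0.24 in B cells and -1.02 in monocytes, beside 0.04, 0.06 and -0.01 for all genes tested. Without contradicted samples, JS17 among them, these were -0.72, 0.40 and -0.49, beside 0.12, 0.19 and 0.14. The named genes that follow were taken from those with the lowest p-values of their list, after their values were seen. Over all genes 45.2%, 36.2% and 25.5% passed in T cells, B cells and monocytes, in either direction. Of the TNF family partners in T cells 6 of 17 rose and 1 fell, with Tnfrsf14 (HVEM) up by 2.05 ± 0.51, Tnfrsf1a by 0.82 ± 0.20, Tnfsf10 (TRAIL) by 1.00 ± 0.29 and Lta by 0.58 ± 0.20, and Tnfrsf18 down, a log2 difference of -0.63 ± 0.15. In B cells 3 of 11 rose, Tnfrsf14 by 1.95 ± 0.41, Tnfsf10 by 2.65 ± 0.59 and Lta by 0.99 ± 0.24. In monocytes 2 of 18 rose and 4 fell. Those that rose were Tnfrsf14, by 2.45, and Tnfsf13 (APRIL, the second ligand of TACI), by 1.47 ± 0.53 (adjusted p = 0.0445, near the threshold), to 5.26 ± 2.53 CPM from 1.65 CPM. Those that fell, the larger number, are not named here. Tnfrsf17 (BCMA), the plasma cell receptor of the same ligands, stayed at or under 4.17 CPM on average in every group.

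Of the 19 TRAF and NF-kB genes, 2 rose and 8 fell in T cells, 2 rose and 6 fell in B cells, and 1 rose and 4 fell in monocytes, with medians of -0.23, -0.01 and -0.10. Over all genes 45.2%, 36.2% and 25.5% passed. Traf6, an adaptor that CD40 engages, fell by 1.34 ± 0.14 in T cells, 1.33 in B cells and 0.93 in monocytes. Birc2 (cIAP1), which with TRAF proteins restrains noncanonical NF-kB, fell by 1.08 ± 0.13, 0.89 and 1.20, and Tnfaip3 fell by 1.79 ± 0.27, 1.27 and 1.20. Of the survival and follicular B cell genes 1 of 10 rose and 5 fell in T cells, 2 of 9 rose and 2 fell in B cells, and 1 of 10 rose and 4 fell in monocytes. Mcl1, a survival factor of the BCL-2 family, fell by 2.53 ± 0.14 in T cells, 1.64 ± 0.21 in B cells and 2.08 in monocytes, and Bcl2 in B cells rose by 0.69. Of the CD28 and B7 family 1 of 7 passed in B cells, Pdcd1lg2 (PD-L2), which rose by 0.86 ± 0.29, and 2 of 8 in monocytes, Cd80 and Cd28, which fell by 2.40 ± 0.50 and 2.47.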

How the data were processed

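The authors deposited raw counts of reads per gene, with no normalisation. Per the submitters' processing notes, reads were aligned with HISAT2 2.1.0 and counted with HTSeq 0.11.2, and GRCm38 is among the builds named. Low-input cDNA came from a SMART-Seq kit, per the labels' protocols. The strand used in counting is not given in the sources used here. Lines without a gene name (3) were left out.

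Of 124 libraries, 39 pairs were repeat runs of a sample (chi-square per gene 1.1 to 1.32, against at least 3.01 between other samples of a group) and were summed, which left 85 samples. Counts per 1000000 (CPM) refer to the summed total. Positions and exon lengths came from GENCODE M21 and promoters from RefSeq. Labels were checked against sex genes and cell type markers, and none was changed.

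Each comparison was fitted on all genes in edgeR 4.0.16 under R 4.3.3, by the quasi-likelihood F test with TMM factors and sex as a term, after filterByExpr (minimum count 10, minimum total 15). A gene passed where its p, adjusted by Benjamini-Hochberg over all genes tested, was under 0.05. Alternatives were DESeq2 1.42.0, its size factors, limma voom 3.58.1 with sample weights, no filter or a minimum count of 30, no sex term, marker scores as terms, and leaving out contradicted or single samples. The fits were tested on simulated data. Plots were drawn with matplotlib 3.10.9 from tables made with scipy 1.17.1, numpy 2.4.6 and pandas 2.3.3 in Python 3.11.15.

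The members and gene lists were chosen with earlier results of these data known. The rule names all members in every comparison; those too low to be tested have no fitted value. Of each list, up to 5 genes that passed in EtOH against PBS are named by lowest p, or else the 2 with the lowest p.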

Additional observations from a re-analysis of the deposited data

Results flagged for a closer look

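Values are CPM, and a sample is listed where its gap to the nearest of the others is large against the range of its group. 18 of 60 groups of 4 to 10 samples were so marked. Several of them mark the same sample, JS17, and those of Cd70 rest on 1 to 3 reads. The number is a description and is not set against a rate expected by chance. Among monocytes labelled PBS, the T-cell-like JS17 stood apart for Cd40lg at 101.906 (the next sample 11.8), Cd27 at 353.128 (34.0), Tnfrsf4 at 43.959 (8.49), Icos at 117.346 (11.9) and, as the lowest, Icosl at 6.176 (25.8). JS14 stood apart there for Tnfrsf13c at 36.185 (11.5). Among EtOH T cells the monocyte-like JS29 stood apart for Cd40 at 55.723 (12.2) and Icosl at 33.952 (9.47). Among PBS T cells JS1, which carries B cell markers, stood apart for Cd40 at 41.829 (16.1) and Icosl at 46.476 (8.62). Among PBS B cells JS16 stood apart for Tnfsf13b at 6.476 (2.48), JS10 for Tnfrsf4 at 11.65 (3.89) and JS2 for Icosl at 304.195 (196.5). For Cd70 the values rest on 1 to 3 reads each: 0.776 in JS43 of the EtOH monocytes, 2.262 in JS14 of the PBS monocytes, 0.385 in JS35 of the EtOH T cells, 0.179 in JS1 of the PBS T cells and 1.485 in JS18 of the PBS B cells.

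In 2 cases every CBM sample of one cell type lay on the opposite side of the PBS mean from every CBM sample of another. Cd40 lay below the PBS mean in T cells (mean 3.239 CPM under CBM) and above it in B cells. The PBS T cell mean of 10.7 CPM was raised by JS1 and JS20, which carry B cell markers: the median was 2.20 CPM under PBS and 2.97 CPM under CBM, and the log2 difference was -0.59 without JS1. Cd27 lay above the PBS mean in B cells (mean 9.547 CPM under CBM) and below it in monocytes. The PBS monocyte mean of 54.0 CPM was raised by JS17. Without contradicted samples the means were 5.68 CPM under PBS and 6.37 CPM under CBM, and 6 of 13 CBM samples lay above the PBS mean (log2 difference 0.29), so the opposite direction was not kept. These differences between cell types were not tested.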

How the results depend on the processing

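The number of members that passed was the same in 225 recomputations and moved in 23. Single members kept direction and side of the threshold in 1736 recomputations, gained the threshold in 37, lost it in 44 and reversed in 102. In EtOH against PBS, 1 member passed in T cells without contradicted samples under DESeq2 (Cd27) and 2 passed in monocytes with no filter (Cd40lg -1.87, Cd27 -1.57). In CBM against PBS, T cells gave 3 with the stricter filter, 3 with voom and 3 without contradicted samples. B cells gave 2 with DESeq2, 2 with its size factors, 2 with the stricter filter, 3 with voom and 2 with marker scores. Monocytes gave 2 with the stricter filter, 0 with marker scores and 1 without contradicted samples. B cells against monocytes under PBS gave 5 without contradicted samples. Leaving out each sample in turn gave 0 to 0 members in EtOH against PBS in each cell type. Without contradicted samples it gave 0 to 1 in T cells (1 without JS23, Cd27 0.78), 0 to 1 in B cells (1 without JS2 or JS30, Tnfrsf13b 0.91 and 0.84) and 0 to 0 in monocytes. In CBM against PBS it gave 3 to 6 in T cells (3 without JS20, CBM10 or CBM12), 1 to 2 in B cells (2 without CBM12, Tnfrsf13c -0.48) and 2 to 5 in monocytes (2 without JS17 or JS22).

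Over all genes, EtOH against PBS called 0 in T cells (37 with DESeq2, 414 with voom, 583 with marker scores). It called 0 in B cells (1 with DESeq2, 200 with no filter) and 0 in monocytes (154 with no filter). Without contradicted samples it called 182 in T cells (942 with DESeq2, 28 without JS4 and 358 without JS1), 577 in B cells (1189 with DESeq2, 0 without JS5 and 1458 without JS30) and 13 in monocytes (387 with DESeq2, 0 without JS6 and 121 without JS31). CBM against PBS called 6734 in T cells and 12435 with no filter.

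Among CBM calls, leaving out 1 sample kept Icos (-1.46 to -1.1) and Tnfrsf4 (-0.9 to -0.7) in T cells, Cd27 in B cells (0.76 to 1.06) and Tnfrsf13c in monocytes (-2.5 to -1.9). Tnfsf13b in T cells ranged from 3.62 to 4.31 in the 12 of 18 fits that tested it. In the rest it did not pass the filter on low counts. Cd40 in T cells ranged from -2.49 to -0.59 and was lost without JS1 (-0.59), JS20 (-1.85), CBM10 (-1.78), CBM11 (-1.77), CBM12 (-2.03) or CBM13 (-1.91). Tnfrsf13c in T cells ranged from -2.49 to -1.35 and was lost without JS20 (-1.48). In monocytes Cd27 ranged from -2.64 to -0.82 and was lost without JS17 (-0.82) or JS22 (-2.17), Icos was lost without JS17 (-1.41) or JS19 (-2.45), and Tnfrsf4 was lost in 10 of 21 fits.

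Reversed values are log2 differences, and the cause was not tested. In EtOH against PBS in T cells they were Cd40lg 0.09 and Tnfrsf13b 0.23 with voom, Tnfrsf13b 0.21, Tnfrsf13c 0.45 and Icosl 0.34 with marker scores, and Cd40lg 0.05 and Tnfrsf13b 0.14 without contradicted samples. In B cells they were Icosl -0.07 with no filter, Cd27 0.09 with voom, Tnfrsf13c 0.14 and Icosl -0.08 with no sex term, Tnfrsf13c 0.02 and Cd27 0.36 with marker scores, and Tnfrsf13c 0.03 and Cd27 0.51 without contradicted samples. In monocytes they were Cd40 -7e-05 and Icosl -0.01 with no filter, Cd40 -0.17, Cd27 0.76, Icos 1.15 and Icosl -0.05 with voom, Tnfrsf13c 0.36, Cd27 0.25 and Icos 0.17 with marker scores, and Cd40 -0.19, Cd27 1.47, Tnfrsf4 0.22, Icos 0.85 and Icosl -0.28 without contradicted samples. In CBM against PBS in T cells marker scores gave Cd40 0.44, Cd40lg 0.15, Tnfrsf13b 0.05, Tnfrsf13c 0.21 and Icosl 0.27, and in B cells Tnfrsf4 0.35. In CBM monocytes they were Tnfsf13b -0.09 with voom, Tnfsf13b -0.06 and Cd27 1.02 with marker scores, and Tnfsf13b -0.42 and Cd27 0.29 without contradicted samples. With no filter, Tnfrsf13c was 0.02 in T cells against monocytes under EtOH and Icos -0.01 in B cells against monocytes under CBM.

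Leaving out 1 sample also crossed 0 in these ranges. EtOH T cells: Cd40lg -0.31 to 0.03, Tnfrsf13b -0.15 to 0.14, Icos -0.38 to 0.03 and Icosl -0.83 to 0.95. The same without contradicted samples: Cd40 -2.74 to 0.12, Cd40lg -0.15 to 0.26, Tnfrsf13b -0.09 to 0.27, Tnfrsf13c -1.04 to 0.83 and Icosl -1.34 to 0.12. EtOH B cells: Tnfrsf13c -0.12 to 0.05, Cd27 -0.24 to 0.21 and Icosl -0.09 to 0.11, and without contradicted samples Tnfrsf13c -0.08 to 0.09. EtOH monocytes: Cd40 -0.08 to 0.24, Tnfrsf13c -0.63 to 0.07, Icos -0.97 to 0.48 and Icosl -0.05 to 0.21, and without contradicted samples Tnfsf13b -0.1 to 0.2, Tnfrsf13c -0.79 to 0.91 and Tnfrsf4 -0.07 to 0.85. CBM against PBS: Icosl in T cells -0.77 to 0.4, Tnfrsf4 in B cells -0.31 to 0.33 and Tnfsf13b in monocytes -0.12 to 0.21.

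CBM samples share numbers across cell types. Over 37 same-numbered pairs the correlation of deviations ran from -0.15 to 0.66 (median 0.29, over 0.1 in 29), and 16 of the 37 were most like their own number. That is a hint of pairing, but 8 pairs were not over 0.1 and the labels do not say what the number marks, so the samples were not treated as paired. With the replicate block, 6 instead of 5 members passed in B cells against monocytes (Cd27 0.42, adjusted p = 0.034), 8 in T against B cells and 9 in T cells against monocytes.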
